A study of Mus musculus with 24 samples.

Results

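The comparison described here sets the distal colon of mice with T cell transfer colitis, treated with a low oral dose of a MEK inhibitor (MEKi 0.3), against the colon of untreated mice (Normal). It takes in 8 of the 24 libraries of the study, 4 a group, chosen by the sample that each deposited file belongs to, and all 14773 genes that passed the filter on low counts. All mice were female C.B-17/Icr-scid/scid (SCID) animals bought at 7 weeks of age. The MEKi 0.3 mice had been injected on day 0 with 200000 CD4+ T cells, taken from BALB/c spleen cells that had been activated for 3 days with concanavalin A and interleukin-2. They then received 0.3 mg/kg of the inhibitor daily by mouth, packed in enteric microparticles, on days 17 to 27, and their colon was taken on day 28. Mice were divided among the transfer groups by diarrhea score on day 17. Normal mice are labelled as having had no treatment, so they differ from MEKi 0.3 by the transfer, the disease, the drug and the microparticles together, and no group received microparticles without drug. Vehicle mice (transfer and 0.5% methylcellulose, no drug) and mice on 1 mg/kg (MEKi 1) are used as further points of reference, with 4 libraries each. The labels do not say that the replicates are separate animals, so p-values measure the spread between these samples only.

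SCID mice lack mature T and B cells, and transfer of activated CD4+ T cells into them produces colitis. T helper cells release interferon-gamma and TNF, which act on epithelium and myeloid cells, raise antigen presentation, and draw in neutrophils and monocytes through chemokines. MEK is the kinase that activates ERK, which carries growth factor and T cell receptor signals. Genes such as Dusp6, Spry4, Etv4 and Etv5 are transcribed in response to ERK and are used as readouts of its output.

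Library totals were 4034493 to 5840995 counts in MEKi 0.3 and 3052940 to 5358259 in Normal. Values are CPM (counts scaled to the TMM-adjusted library size), and fold changes are log2 values of MEKi 0.3 over Normal with standard errors (SE) from edgeR. Of the MEKi 0.3 libraries, replicate 4 stood apart. On the first principal component of all 24 libraries, which held 47.9% of the variance, it scored 53.7, against -0.12, -10.5 and -6.72 for replicates 1 to 3, 39.4 to 58.7 in Vehicle and -91.7 to -76.7 in Normal. A combined table of the 24 libraries was deposited too, and 16 of its columns carry the name of a different sample from the single-sample file that holds identical values. All 4 MEKi 0.3 libraries are among these 16. Summed counts of 6 T cell genes (Cd3d, Cd3e, Cd3g, Cd4, Trac, Lck), which SCID mice without transfer should lack apart from Cd4 in myeloid cells, were 443 to 541 in MEKi 0.3 and 35 to 66 in Normal by the samples' own files. By the table's names they were 246 to 748 in MEKi 0.3 and 35 to 541 in Normal. The samples' own files were used, and grouping by the table's names gave no gene past the threshold against Normal in edgeR (1472 at an unadjusted p below 0.05). The table names MEKi 0.3 replicates 3 and 4 as Vehicle libraries. It names Vehicle replicates 1 and 2 as MEKi 0.3, Vehicle replicates 3 and 4 as MEKi 1, and MEKi 1 replicates 1 and 2 as MEKi 0.3. T cell genes, present in all of these groups, cannot tell these labels apart. The comparisons with Vehicle and MEKi 1 therefore rest on the labels of the samples' own files, which were not checked otherwise. Both groups held colon epithelium: the epithelial genes Epcam and Vil1 averaged 1653 ± 185 and 819 ± 126 CPM in MEKi 0.3 and 1799 ± 122 and 815 ± 118 CPM in Normal (SD, n = 4 each). The intestinal transcription factor gene Cdx1 averaged 400 ± 56.4 CPM in MEKi 0.3 and 333 ± 47.6 CPM in Normal, also SD with n = 4 each.

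**Figure D1:**
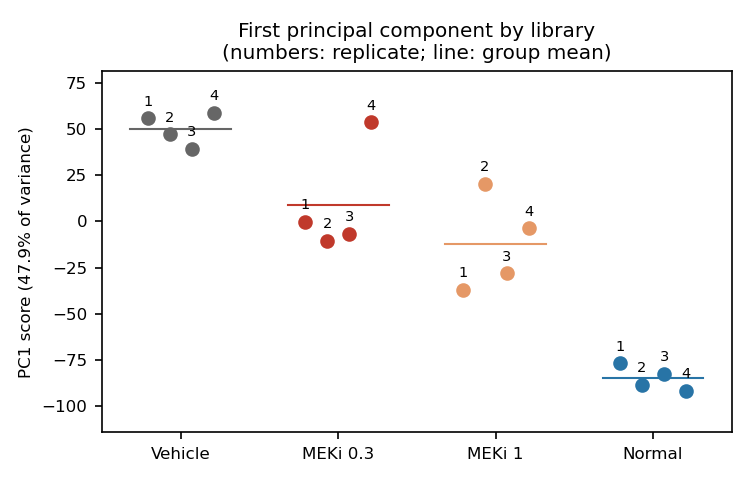
First principal component score (vertical axis, from log2 CPM of all tested genes in 24 libraries) for the libraries of Vehicle, MEKi 0.3, MEKi 1 and Normal; numbers are replicates and lines are group means. MEKi 0.3 replicates 1 to 3 lie between -10.5 and -0.12, and replicate 4 lies at 53.7, among the Vehicle libraries.

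At 0.3 mg/kg the colon kept a broad difference from Normal: 2939 of 14773 genes passed an adjusted p of 0.05 in edgeR (19.9%), 1601 of them higher (10.8%) and 1338 lower (9.06%) in MEKi 0.3. Of these, 944 were higher and 698 lower by over 2-fold. The median log2 fold change of all tested genes was 0.02, and for 9217 genes (62.4%) the whole 95% interval of the fold change lay within 2-fold of Normal. All libraries of MEKi 0.3 lay above all those of Normal for 1802 genes (12.2%) and below them for 1738 genes (11.8%). Without MEKi 0.3 replicate 4 the fit called 1835 of 15025 genes (12.2%), 1162 higher (7.73%) and 673 lower (4.48%). Of the 2939 genes, 1752 were called in both fits. The lower calls fell more than the higher calls without replicate 4, but this was not particular to it. Without MEKi 0.3 replicate 1 the lower calls also fell more (1481 higher, 1004 lower), while without MEKi 0.3 replicate 2 neither side fell (1643 and 1347).

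**Figure D2:**
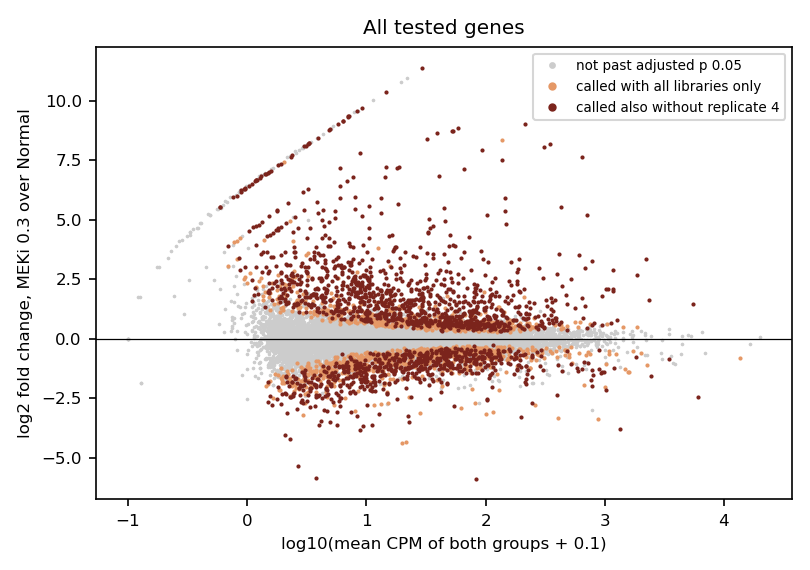
Log2 fold change of MEKi 0.3 over Normal (vertical axis) against the mean expression of both groups (horizontal axis, log10 of CPM + 0.1) for all 14773 tested genes. Dark points are the 1752 genes called with and without MEKi 0.3 replicate 4, light orange points are the genes called only with it, and grey points did not pass.

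The largest differences among the genes ranked here were of genes nearly absent from Normal colon. The ranking took called genes with a mean of at least 5 CPM in a group. Genes with predicted, Riken, pseudogene, unnamed Ensembl or immunoglobulin segment names were left out of it. Over all tested genes the highest log2 fold change was 11.4, in a gene not ranked here. By log2 fold change, the 12 highest of the genes whose libraries did not overlap were Cd5, Ly6d, Trac, Reg3b, S100a9, Cd3e, Igj, Cxcl5, S100a8, Cxcl2, Mmp7 and Reg3g. They comprise T cell receptor and co-receptor genes, neutrophil calprotectin, chemokines that bind the neutrophil receptor CXCR2, the joining chain of secreted immunoglobulin, and epithelial lectins. The 12 lowest were Cyp2c55, Pde6a, Ang4, Slc30a10, Cyp2c69, Car1, Aadac, Tcf23, Itih2, Smpx, Itln1 and Fcrls. Ly6d, a GPI-anchored surface protein gene, had 10.9, 5.89, 7.04 and 26.2 CPM in MEKi 0.3, and no count in any Normal library. That is at least 70.2-fold higher in MEKi 0.3, taking a floor of 3 counts over the Normal group (adjusted p = 0.000271). Mmp7 (matrilysin, a matrix protease that also activates antimicrobial peptides) had 51.7, 21.7, 38.1 and 147 CPM in MEKi 0.3 and 0, 0, 0.185 and 0.436 CPM in Normal. Its log2 fold change was 8.39 ± 1.26 (adjusted p = 0.000114), moving to 7.61 without MEKi 0.3 replicate 4 and 9.36 without Normal replicate 4. In both genes replicate 4 was the highest MEKi 0.3 library, and all MEKi 0.3 libraries lay above Normal. Plet1, a surface protein gene picked out after its values were seen, had 1108, 661, 1394 and 1952 CPM in MEKi 0.3 and 5.19, 12.8, 4.99 and 3.92 CPM in Normal (log2 fold change 7.64 ± 0.61, adjusted p = 2.01e-08).

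Genes of T cells, the transferred cell type, were high: 18 of 20 tested T cell markers were higher in MEKi 0.3 and none lower, again 18 and none without replicate 4, against the 10.8% of all genes that were higher. The list's median log2 fold change was 4.92, or 4.16 with the 5 genes at 0 in Normal taken at their bound. Cd27 and Cd28 did not pass. Since this is bulk RNA, fewer cells of a type and less RNA per cell cannot be told apart, here or in any later list. Cd3g, a chain of the CD3 complex of the T cell receptor (chromosome 9, 44969572 to 44980431), had 9.71, 11.99, 9.73 and 15.3 CPM in MEKi 0.3 and 0, 0, 0.369 and 0.218 CPM in Normal. All 4 MEKi 0.3 libraries lay far above Normal. The count ratio was 67.2 (95% counting interval 22.7 to 328), with an adjusted p of 7.76e-09. Cd3e, another CD3 chain (chromosome 9, 44998740 to 45009627), had 7.63, 9.47, 7.66 and 13.1 CPM in MEKi 0.3 and no count in Normal, which is at least 54.2-fold higher. Trac, the constant region of the receptor's alpha chain, had 12.5, 13.3, 6.62 and 12.9 CPM in MEKi 0.3 and no count in Normal, at least 66.3-fold higher (adjusted p = 1.88e-08). Cd5, a T cell co-receptor gene, was at least 71.7-fold higher, and Trbc2, the beta chain constant region, had a log2 fold change of 5.44 ± 0.49. Vehicle libraries held 15.5 to 23.8 CPM of Cd3g and 11.6 to 16.3 CPM of Cd3e, and MEKi 1 libraries 7.63 to 15.3 and 4.58 to 8.37 CPM.

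Among T helper cytokines and regulators, 6 of 7 tested members were higher and none lower, 5 and none without replicate 4. The list has 17 members, and the tested member that was not called had a log2 fold change of -0.61. The tested members summed to 63.4 ± 15.3 CPM in MEKi 0.3 and 69.8 ± 29.8 CPM in Normal (SD, n = 4 each). Ifng, which encodes interferon-gamma (chromosome 10, 118441046 to 118445892), had 3.12, 0.842, 0.621 and 6.55 CPM in MEKi 0.3 and no count in Normal. It varied widely, with replicates 1 and 4 well above replicates 2 and 3, and was at least 15.7-fold higher (adjusted p = 0.00463, or 0.0172 without replicate 4). Tbx21, the T-bet regulator of type 1 helper cells, had 2.77, 2.10, 2.48 and 5.58 CPM in MEKi 0.3 and 0.433, 0.336, 0.554 and 0.436 CPM in Normal (log2 fold change 2.76 ± 0.49, adjusted p = 0.000263). Il12rb2, the interleukin-12 receptor chain of the same cells, had a count ratio of 13.6 (95% counting interval 4.35 to 68.2) (adjusted p = 0.00289). Foxp3, the defining factor of regulatory T cells, had 5.55, 3.16, 3.72 and 0.243 CPM in MEKi 0.3 and 0, 0, 0 and 0.436 CPM in Normal, so that replicate 4 lay inside the Normal range and replicates 1 to 3 above it. Its log2 fold change was 4.59 ± 0.95 (adjusted p = 0.00138), moving to 7.23 without Normal replicate 4. The interleukin genes Il17a and Il22 did not reach the filter: Il17a had 9 counts over the MEKi 0.3 group and 0 in Normal, and Il22 had 9 and 0, of which 8 were in replicate 4. Of further interleukin genes under the filter, Il17f had 16 counts in MEKi 0.3 and 2 in Normal, Il4 2 and 2, and Il10 2 and 4.

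Of 8 tested cytotoxic and NK cell genes, 6 were higher and none lower, with Klrk1 among the 6 only with replicate 4 and Ncr1 only without it. Nkg7, a granule protein of cytotoxic cells, had 8.84, 12.6, 11.8 and 19.4 CPM in MEKi 0.3 and 1.51, 1.68, 1.29 and 1.09 CPM in Normal (log2 fold change 3.23 ± 0.33, adjusted p = 1.3e-07). Gzma, a granzyme gene, had 14.2, 11.2, 8.28 and 28.4 CPM in MEKi 0.3 and 0.433, 0, 0 and 0.436 CPM in Normal (log2 fold change 5.95 ± 0.70). Gzmb, another granzyme gene, had 6.41, 3.79, 5.79 and 8.97 CPM in MEKi 0.3 and 0, 0.336, 0 and 0 CPM in Normal, a count ratio of 108 (95% counting interval 19.1 to 4318). All 3 genes were above Normal in every MEKi 0.3 library.

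Antibody genes are made by B cells and plasma cells, which SCID mice lack, and the transferred cells were isolated as CD4+. Of 9 tested B and plasma cell genes, 6 were higher and none lower, and replicate 4 was the lowest MEKi 0.3 library in all 9. The median log2 fold change was 8.05, or 5.38 with the 2 genes at 0 in a group at their bound. Igha, the constant region of IgA, had 1576, 980.0, 188 and 8.73 CPM in MEKi 0.3 and 0.649, 0, 6.83 and 0.872 CPM in Normal. Igkc, the kappa light chain, had 1448, 826, 186 and 15.04 CPM in MEKi 0.3 and 0, 0.336, 7.20 and 0.654 CPM in Normal, and the joining chain gene Igj 236, 143, 36.6 and 1.21 CPM in MEKi 0.3 and 0, 0, 0.739 and 0 CPM in Normal. In all 3 genes replicates 1 and 2 were high, replicate 3 was lower, and replicate 4 was near the highest Normal library. The log2 fold change of Igha was 8.17 ± 1.82 (adjusted p = 0.00412), moving to 7.36 without MEKi 0.3 replicate 1 and 10.18 without Normal replicate 3. For Igkc it was 8.05 ± 1.82, moving to 7.20 without MEKi 0.3 replicate 1 and 10.78 without Normal replicate 3, and for Igj 8.72 ± 2.20, moving to 7.93 without MEKi 0.3 replicate 1 and 12.22 without Normal replicate 3. The summed list came to 3346, 2034, 441 and 36.1 CPM in MEKi 0.3, 874 to 5908 CPM in Vehicle and 5.62 to 28.1 CPM in Normal. Immunoglobulin genes share sequence and may share reads.

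Interferon-gamma response genes were higher without exception: all 32 tested members passed, with and without replicate 4, and the libraries of MEKi 0.3 and Normal did not overlap for any of the 32. The median log2 fold change was 3.29, against 0.02 over all genes. Irgm2, an interferon-induced GTPase that acts on pathogen vacuoles (chromosome 11, 58199618 to 58222782), had 188, 142, 168 and 189 CPM in MEKi 0.3 and 23.1, 19.5, 13.1 and 12.2 CPM in Normal. Gbp8, a guanylate-binding protein gene, had 30.7, 27.8, 26.3 and 46.6 CPM in MEKi 0.3 and 1.73, 2.69, 2.95 and 1.74 CPM in Normal, and Gbp2, shown for its promoter, 366, 269, 295 and 295 CPM in MEKi 0.3 and 55.8, 78.04, 53.2 and 64.5 CPM in Normal. Each MEKi 0.3 library of these 3 genes lay over 3-fold above every Normal library. Log2 fold changes were 3.35 ± 0.23 for Irgm2 (adjusted p = 1.73e-10), 3.84 ± 0.26 for Gbp8 (adjusted p = 1.73e-10) and 2.29 ± 0.22 for Gbp2 (adjusted p = 4.26e-08). Tap1, the peptide transporter that loads class I molecules, had 419, 308, 306 and 352 CPM in MEKi 0.3 and 37.4, 43.7, 33.98 and 20.7 CPM in Normal (log2 fold change 3.36 ± 0.25). Irgm2 spanned 142 to 189 CPM in MEKi 0.3 and 116 to 144 CPM in Vehicle.

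Of 10 class II antigen presentation genes, 9 were higher and none lower, with and without replicate 4, and H2-Ob did not pass. Cd74, the invariant chain that chaperones class II molecules, had 4065, 4213, 3881 and 4011 CPM in MEKi 0.3 and 393, 342, 414 and 418 CPM in Normal. H2-Ab1, a class II beta chain (chromosome 17, 34257689 to 34269419), had 1343, 1616, 1235 and 1507 CPM in MEKi 0.3 and 145, 137, 154 and 151 CPM in Normal. H2-Aa, the matching alpha chain (chromosome 17, 34282744 to 34287823), had 2181, 2429, 1866 and 1712 CPM in MEKi 0.3 and 288, 218, 282 and 330.4 CPM in Normal. The groups were far apart in all 3 genes, and replicate 4 was in the range of the other MEKi 0.3 libraries or just below it. Log2 fold changes were 3.37 ± 0.16 for Cd74 (adjusted p = 2.2e-13), 3.28 ± 0.15 for H2-Ab1 (adjusted p = 2.2e-13) and 2.87 ± 0.15 for H2-Aa (adjusted p = 1.48e-12). H2-Eb1, another class II beta chain gene, named for its promoter, had a log2 fold change of 2.95 ± 0.16. Of 16 class I genes, 15 were higher and none lower, at a median of 1.41 on the log2 scale, and H2-Q1 did not pass. H2-K1 had 1786, 1925, 1841 and 2088 CPM in MEKi 0.3 and 436, 458, 478 and 443 CPM in Normal (log2 fold change 2.07 ± 0.15), while the non-classical genes H2-Q6 and H2-Q7 had log2 fold changes of 2.44 ± 0.15 and 2.54 ± 0.18. H2 genes are near copies of each other, so reads may be split between them. Of 23 type I interferon response genes, 16 were higher and none lower, with a median log2 fold change of 1.10. Its examples were Ifit2, which restricts viral translation, at 3.09 ± 0.34, and the ISGF3 subunit genes Stat2 and Irf9 at 1.36 ± 0.16 and 1.10 ± 0.13. Replicate 4 was the lowest MEKi 0.3 library for 17 of these 23 genes and the highest for 23 of the 32 interferon-gamma genes.

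Promoter sequences are shown for 4 of these genes because nearly all members of the interferon-gamma and class II lists were called. The windows run from 250 bases before to 50 bases after the start of the gene (RefSeq, GRCm38.p6, 5′ to 3′ on the gene's strand). The Irgm2 window lies inside the GENCODE interval given above, which begins upstream of the RefSeq start. Capitals mark the motifs searched on both strands: the interferon-gamma activated site GAS (TTCNNNGAA), the interferon-stimulated element ISRE (GAAA, any 2 bases, GAAA) and the Y box of class II promoters (CTGATTGG).
Irgm2 promoter, chr11:58214727-58215026, plus strand: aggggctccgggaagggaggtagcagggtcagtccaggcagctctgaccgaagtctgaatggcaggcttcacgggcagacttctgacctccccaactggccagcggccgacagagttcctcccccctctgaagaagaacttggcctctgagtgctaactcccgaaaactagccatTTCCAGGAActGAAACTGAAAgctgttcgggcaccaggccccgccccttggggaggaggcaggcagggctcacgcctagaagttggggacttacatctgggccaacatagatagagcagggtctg
Gbp2 promoter, chr3:142620413-142620712, plus strand: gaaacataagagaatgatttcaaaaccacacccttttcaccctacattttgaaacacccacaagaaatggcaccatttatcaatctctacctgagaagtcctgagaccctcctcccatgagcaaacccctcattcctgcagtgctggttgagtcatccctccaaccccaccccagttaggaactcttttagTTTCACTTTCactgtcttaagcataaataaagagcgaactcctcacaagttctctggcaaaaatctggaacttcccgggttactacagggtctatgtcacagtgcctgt
H2-Aa promoter, chr17:34287774-34288073, minus strand: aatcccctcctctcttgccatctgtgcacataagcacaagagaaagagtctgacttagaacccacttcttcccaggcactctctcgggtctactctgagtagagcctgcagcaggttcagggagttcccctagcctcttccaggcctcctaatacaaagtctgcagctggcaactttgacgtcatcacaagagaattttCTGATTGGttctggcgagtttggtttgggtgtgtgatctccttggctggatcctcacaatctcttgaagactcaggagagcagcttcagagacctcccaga
H2-Eb1 promoter, chr17:34305617-34305916, plus strand: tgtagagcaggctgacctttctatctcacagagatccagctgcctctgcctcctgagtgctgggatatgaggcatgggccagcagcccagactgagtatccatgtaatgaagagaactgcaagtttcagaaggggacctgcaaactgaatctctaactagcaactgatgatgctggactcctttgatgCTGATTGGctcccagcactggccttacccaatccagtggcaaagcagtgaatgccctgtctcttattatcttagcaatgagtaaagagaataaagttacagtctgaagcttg
The Irgm2 window holds a GAS and an ISRE that do not overlap, the Gbp2 window an ISRE, and both class II windows a Y box. Gbp2 and H2-Eb1 were chosen after their values were seen.
Of the 32 interferon-gamma genes, 22 had a promoter entry, of which 12 (54.5%) held the ISRE letters and 9 (40.9%) the GAS letters, against 3.99% and 9.55% of 27025 genes with an entry. Of 17 type I interferon genes with an entry, 9 (52.9%) held the ISRE. Of 7 class II genes with an entry, 3 held the Y box (42.9%, against 4.7% of all genes) and none the ISRE, and 5 of 12 class I genes (41.7%) held the Y box too. The Y box was also held by 5 of the 22 interferon-gamma genes (22.7%), and the ISRE by 4 of the 12 class I genes (33.3%). Of 17 neutrophil genes, 3 held the GAS letters (17.6%), 1 the ISRE (5.88%) and none the Y box. Of 13 smooth muscle genes, none held the GAS letters, 1 the ISRE (7.69%) and 2 the Y box (15.4%). A match of letters is a description of these windows and not evidence of binding.

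**Figure D3:**
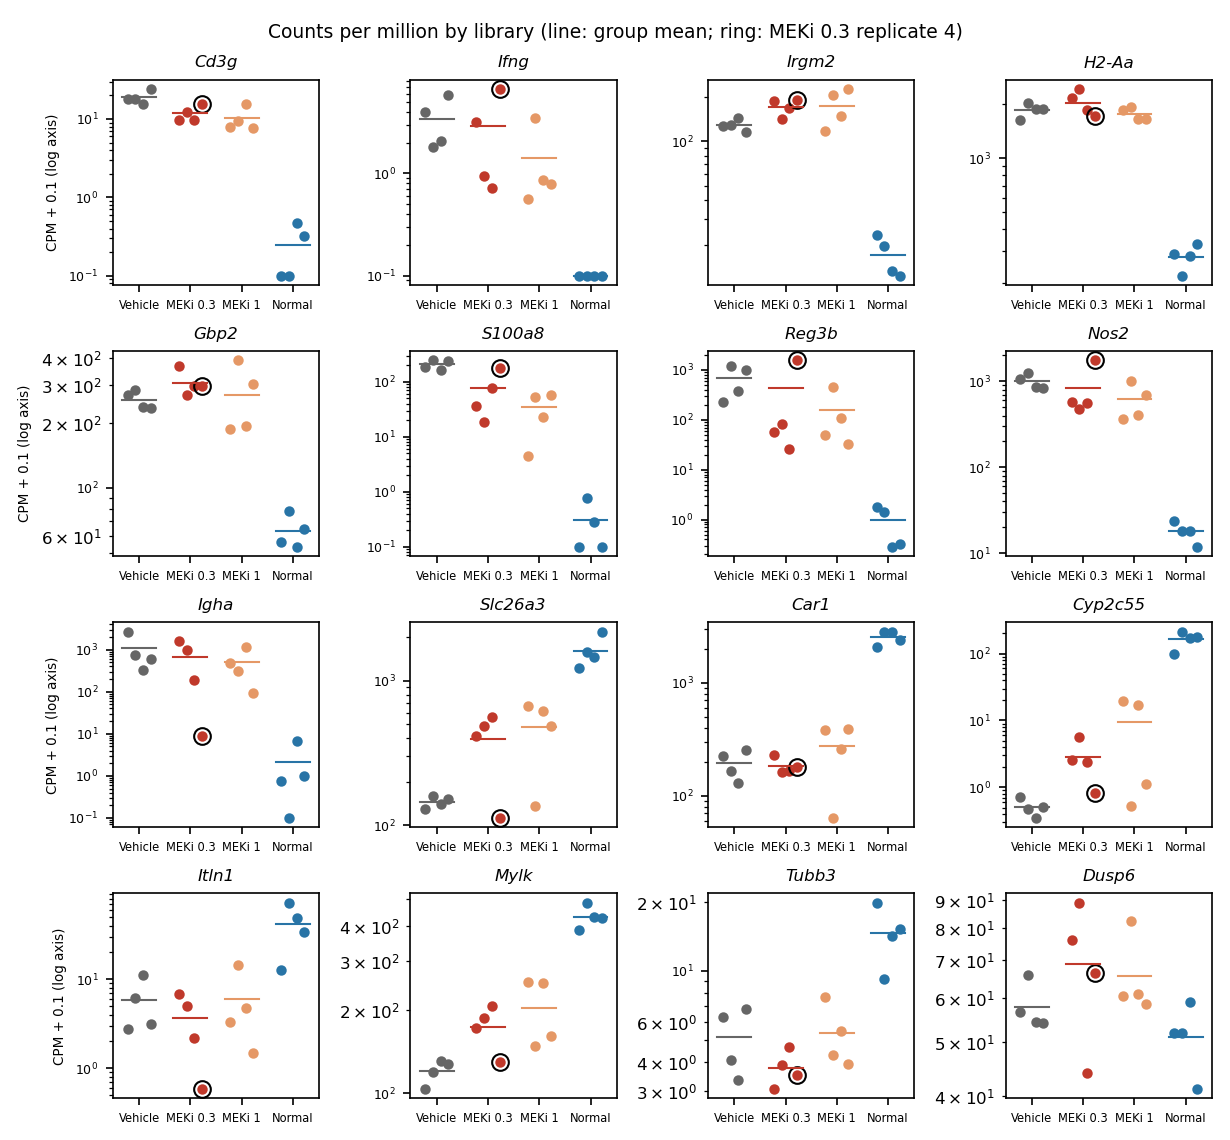
Expression by library of 16 genes (vertical axes, CPM + 0.1 on log scales) in Vehicle, MEKi 0.3, MEKi 1 and Normal; lines are group means and the ring marks MEKi 0.3 replicate 4. Irgm2, H2-Aa and Cd3g are far above Normal in all 4 MEKi 0.3 libraries, while replicate 4 departs from the other 3 upward in Reg3b and Nos2 and downward in Igha and Slc26a3.

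Neutrophil genes were high, with a wide spread between libraries. Of 17 tested members, 11 were higher and none lower (10 and none without replicate 4), and the median log2 fold change was 4.22 (3.76 when the 4 genes without a count in a group are set at their bound). Replicate 4 was the highest MEKi 0.3 library for 15 of the 17. S100a8, a subunit of calprotectin (chromosome 3, 90668978 to 90670035), had 36.9, 18.9, 75.9 and 178 CPM in MEKi 0.3 and 0, 0.673, 0.185 and 0 CPM in Normal. S100a9, the other subunit (chromosome 3, 90692632 to 90695721), had 23.2, 10.3, 62.1 and 375 CPM in MEKi 0.3 and 0, 0.673, 0.369 and 0 CPM in Normal. Both were above Normal in every MEKi 0.3 library, and replicate 4 was the highest. The log2 fold change of S100a8 was 8.64 ± 1.39 (adjusted p = 0.000235), moving to 7.83 without MEKi 0.3 replicate 4 and 9.75 without Normal replicate 2. For S100a9 it was 8.87 ± 1.80 (adjusted p = 0.00197), moving to 7.00 without MEKi 0.3 replicate 4 and 9.54 without Normal replicate 2. Csf3r, the G-CSF receptor gene, had 33.5, 24.8, 27.9 and 41.5 CPM in MEKi 0.3 and 3.24, 0, 2.59 and 2.83 CPM in Normal (log2 fold change 3.76 ± 0.64). Cd177, a surface protein gene listed with neutrophils, did not share this spread, at 1203, 1080, 1281 and 955 CPM in MEKi 0.3 and 94.5, 78.7, 119 and 96.3 CPM in Normal (log2 fold change 3.54 ± 0.32, adjusted p = 3.12e-08). Cd177 was the only tested member of the list for which replicate 4 was the lowest MEKi 0.3 library. In MEKi 1 it averaged 1321 CPM, where S100a8 averaged 34.2 CPM. Which cells held the Cd177 transcripts was not tested.

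Of 17 monocyte and macrophage genes, 11 were higher and none lower, 9 and none without replicate 4. Cd14, the lipopolysaccharide co-receptor, had 373, 255, 284 and 321 CPM in MEKi 0.3 and 86.1, 79.4, 70.5 and 76.1 CPM in Normal (log2 fold change 1.98 ± 0.22). Aif1, a marker of macrophages, had 21.3, 21.7, 22.6 and 34.2 CPM in MEKi 0.3 and 5.84, 6.73, 4.62 and 4.14 CPM in Normal (log2 fold change 2.24 ± 0.27), and Ly6c2, of inflammatory monocytes, 12.1, 8.63, 6.41 and 17.9 CPM in MEKi 0.3 and 2.38, 1.35, 1.11 and 0.654 CPM in Normal (log2 fold change 3.02 ± 0.39). All 3 genes were separated from Normal in every library. Of 10 dendritic cell genes, 3 were higher and none lower: Batf3, Ccr7, the receptor that guides these cells to lymph nodes, at 2.81 ± 0.49, and Itgae (CD103) at 1.80 ± 0.24. Mast cell proteases were high: Mcpt1, made by mucosal mast cells, had 60.5, 36.4, 49.5 and 174 CPM in MEKi 0.3 and 0.433, 0.336, 0.369 and 1.53 CPM in Normal (log2 fold change 6.83 ± 1.08, adjusted p = 0.00019), moving to 6.12 without MEKi 0.3 replicate 4 and 7.62 without Normal replicate 4. Mcpt2 and Cpa3, further proteases of these cells, had count ratios of 163 (95% counting interval 55.5 to 793) and 39.8 (95% counting interval 10.7 to 333). In all, 4 of 7 mast cell and eosinophil genes were higher and none lower (Mcpt1, Mcpt2, Mcpt4 and Cpa3), with Cma1 added without replicate 4.

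Of 16 TNF and NF-kB targets, 9 were higher and none lower (8 without replicate 4), and Tnf, the cytokine itself, had 26.00, 21.7, 19.9 and 50.9 CPM in MEKi 0.3 and 3.03, 0, 1.48 and 0.872 CPM in Normal (log2 fold change 4.32 ± 0.68, adjusted p = 0.000145), moving to 5.00 without Normal replicate 1. The leukocyte adhesion molecule genes Icam1 and Vcam1 had log2 fold changes of 2.53 ± 0.30 and 1.81 ± 0.26. Of 22 chemokine genes, 11 were higher and none lower (9 and none without replicate 4). Ccl8, which attracts monocytes and T cells, was even across libraries at 54.1, 46.3, 54.4 and 56.99 CPM in MEKi 0.3 and 3.03, 5.38, 4.25 and 2.18 CPM in Normal (log2 fold change 3.86 ± 0.48). The neutrophil chemokine Cxcl5 was not, at 28.3, 10.7, 23.8 and 364 CPM in MEKi 0.3 and 0.216, 1.01, 0 and 0 CPM in Normal, with replicate 4 over 10-fold above the others. Its log2 fold change was 8.72 ± 1.88 (adjusted p = 0.00312), moving to 6.39 without MEKi 0.3 replicate 4 and 10.21 without Normal replicate 2. Cxcl2, of the same receptor family, had 3.29, 0.631, 4.76 and 21.8 CPM in MEKi 0.3 and no count in Normal, at least 40.7-fold higher. Cxcl1, also of that family, had 7.97, 3.79, 3.93 and 17.5 CPM in MEKi 0.3 and 0.216, 0, 0.185 and 0.654 CPM in Normal (log2 fold change 4.75 ± 0.94), moving to 4.13 without MEKi 0.3 replicate 4 and 5.56 without Normal replicate 4. Cxcl16, which binds CXCR6 on T cells, was at 1.80 ± 0.26. Ccl5, a T cell chemokine, had 12.1, 14.1, 12.8 and 63.8 CPM in MEKi 0.3 and 0.649, 0.673, 0.369 and 0.872 CPM in Normal (log2 fold change 5.29 ± 0.75, or 4.33 ± 0.56 without replicate 4). In the IL-1 and IL-6 families 8 of 16 genes were higher and none lower (6 and none without replicate 4), with Il18r1, the interleukin-18 receptor, at 2.55 ± 0.40, Osmr, the oncostatin M receptor, at 1.52 ± 0.26 and the cytokine gene Lif at 2.07 ± 0.39. Of 15 complement genes, 10 were higher and 1, the adipocyte-made Cfd, was lower, or 9 and none without replicate 4. C3, the central component, had 598, 584, 648 and 1062 CPM in MEKi 0.3 and 149.7, 168, 164 and 146 CPM in Normal (log2 fold change 2.21 ± 0.27), with C4b at 1.64 ± 0.21 and C1ra at 1.58 ± 0.21.

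Of 21 epithelial defence genes, 14 were higher and 4 lower (Ang4, Itln1, Saa1 and Saa2), or 12 and 1 (Itln1) without replicate 4. Nos2, the inducible nitric oxide synthase, had 579, 472, 563 and 1750 CPM in MEKi 0.3 and 23.8, 18.2, 18.3 and 11.8 CPM in Normal. Replicates 1 to 3 were close to each other, replicate 4 was about 3-fold above them, and all were far above Normal. The log2 fold change was 5.54 ± 0.58 (adjusted p = 1.16e-06), and 4.90 ± 0.50 without replicate 4. Duox2 and its maturation factor Duoxa2, which make hydrogen peroxide at the epithelial surface, had log2 fold changes of 1.46 ± 0.16 and 2.54 ± 0.28. The bactericidal lectin Reg3b (chromosome 6, 78370657 to 78373466) had 57.4, 82.3, 25.9 and 1550 CPM in MEKi 0.3 and 1.73, 1.35, 0.185 and 0.218 CPM in Normal, and Reg3g 28.9, 31.99, 19.7 and 1019 CPM in MEKi 0.3 and 1.30, 2.35, 0 and 0.218 CPM in Normal. Replicate 4 dominated both, though replicates 1 to 3 were also above Normal. The log2 fold change of Reg3b was 9.02 ± 1.96 (adjusted p = 0.00332), moving to 6.07 without MEKi 0.3 replicate 4 and 9.78 without Normal replicate 1. For Reg3g it was 8.36 ± 1.96 (adjusted p = 0.00586), moving to 5.01 without MEKi 0.3 replicate 4 and 9.10 without Normal replicate 2, and the call was lost without MEKi 0.3 replicate 4 (adjusted p = 0.0551). Lcn2, which withholds iron from bacteria, had 55.99, 25.7, 68.1 and 264 CPM in MEKi 0.3 and 7.14, 9.42, 5.54 and 5.88 CPM in Normal (log2 fold change 3.91 ± 0.78, or 2.87 ± 0.68 without replicate 4). Among the lower genes, Itln1, an intestinal lectin, had 6.76, 4.84, 2.07 and 0.485 CPM in MEKi 0.3 and 12.5, 71.99, 48.2 and 34.00 CPM in Normal (log2 fold change -3.49 ± 0.82, adjusted p = 0.00552). Ang4, an antimicrobial ribonuclease, was at -4.37 ± 1.19 (adjusted p = 0.0148), moving to -5.08 without MEKi 0.3 replicate 1 and -3.74 without Normal replicate 2, and did not pass without MEKi 0.3 replicate 4 (adjusted p = 0.0522).

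Of 20 absorptive genes of the surface colonocyte, 11 were lower and 2 higher (Krt20 and Slc51b), with a median log2 fold change of -1.15. Without replicate 4, 4 were lower (Car1, Car2, Scnn1a and Sult1c2) and 1 higher (Krt20), with a median of -0.97. The list's summed level was 5792, 6297, 6709 and 3401 CPM in MEKi 0.3, 2846 to 4197 CPM in Vehicle and 12159 to 15190.2 CPM in Normal. Car1, a carbonic anhydrase of the colon (chromosome 3, 14766216 to 14808368), had 230.4, 161, 164 and 178 CPM in MEKi 0.3 and 2060, 2828, 2812 and 2388 CPM in Normal. It was low in all 4 MEKi 0.3 libraries alike, in the range of Vehicle at 129 to 256 CPM, with a log2 fold change of -3.78 ± 0.66 (adjusted p = 0.000474). Slc26a3, the chloride-bicarbonate exchanger (chromosome 12, 31390871 to 31473917), had 414, 483, 561 and 112 CPM in MEKi 0.3 and 1235, 1596, 1453 and 2198 CPM in Normal. Here replicates 1 to 3 lay between Vehicle (128 to 159.9 CPM) and Normal, and replicate 4 lay below Vehicle. Its log2 fold change was -2.05 ± 0.58 (adjusted p = 0.0177), and without replicate 4 it did not pass (-1.73 ± 0.58, adjusted p = 0.0588). Car2 and the sodium channel subunit gene Scnn1a had log2 fold changes of -1.41 ± 0.30 and -1.13 ± 0.25. The keratin gene Krt20 went the other way, at a mean of 1377 ± 222 CPM in MEKi 0.3 and 880 ± 144 CPM in Normal (SD, n = 4 each; log2 fold change 0.65, adjusted p = 0.0239).

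Detoxification genes were lower for 6 of 19 and higher for none. Without replicate 4 the lower genes were 3 (Cyp2c55, Abcb1a and Aldh1a1) and the higher 1 (Gsta4). Cyp2c55, a colonic cytochrome P450 (chromosome 19, 39007019 to 39042693), had 2.43, 5.47, 2.28 and 0.728 CPM in MEKi 0.3 and 98.9, 213, 168 and 174 CPM in Normal. Every MEKi 0.3 library was at least 18-fold below every Normal library, and the log2 fold change was -5.88 ± 1.54 (adjusted p = 0.0115). Abcb1a, the drug efflux pump P-glycoprotein, had 65.2, 77.02, 97.9 and 16.5 CPM in MEKi 0.3 and 439, 334, 403 and 521 CPM in Normal (log2 fold change -2.72 ± 0.71). Aldh1a1, which makes retinoic acid, had 15.3, 17.7, 21.1 and 21.8 CPM in MEKi 0.3 and 58.6, 74.7, 59.8 and 71.3 CPM in Normal (log2 fold change -1.80 ± 0.26, adjusted p = 2.52e-05). Related genes among the 12 lowest were Cyp2c69 at -3.83 ± 0.94 and the arylacetamide deacetylase gene Aadac at -3.69 ± 0.77. Slc30a10, a manganese exporter gene, was at -4.33 ± 1.40 (adjusted p = 0.0365), moving to -5.89 without MEKi 0.3 replicate 2, and lost its call in 6 of 8 fits that left out 1 library, with adjusted p up to 0.104.

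Of 16 goblet cell genes, 4 were higher (Clca1, Spdef, Spink4 and Muc4) and 1 lower (Klk1), with a median log2 fold change of -0.02. The counts of this and the next 3 lists stand beside 10.8% higher and 9.06% lower over all genes. Clca1, a secreted mucus protease, had 24.8, 15.4, 26.3 and 18.2 CPM in MEKi 0.3 and 5.41, 5.38, 4.62 and 5.01 CPM in Normal (log2 fold change 2.06 ± 0.25, adjusted p = 1.94e-06). Muc4, a membrane mucin, had 119, 121, 128 and 371 CPM in MEKi 0.3 and 72.9, 72.3, 93.8 and 55.1 CPM in Normal, and its call rested on replicate 4 (1.32 ± 0.35 with it and 0.74 ± 0.28 without, adjusted p = 0.0894). Of 14 enteroendocrine genes, 5 were lower (Chga, Scg3, Scg5, Sst and Tph1) and none higher, and only Scg3 was lower without replicate 4. Scg3, a granule protein of hormone-secreting cells, had 2.08, 0.842, 3.31 and 0.970 CPM in MEKi 0.3 and 7.79, 13.8, 6.28 and 10.2 CPM in Normal (log2 fold change -2.35 ± 0.45). Of 8 tuft cell genes, 3 were lower (Dclk1, Ptgs1 and Trpm5) and 1 higher, with and without replicate 4. The lower genes included Trpm5, the cation channel of taste-like signalling, with 0.867, 1.47, 0.621 and 0 CPM in MEKi 0.3 and 5.41, 3.70, 5.91 and 4.80 CPM in Normal (log2 fold change -2.68 ± 0.59, adjusted p = 0.0024). Ptgs1, the constitutive cyclooxygenase, was at -0.62 ± 0.16. Of 16 tight junction genes, 12 had intervals within 2-fold of Normal, 2 were higher (Cldn7 and Tjp3) and 3 lower (Cldn12, Ocln and Tjp1), of which Ocln alone was lower without replicate 4, with Cldn7 at 0.59 ± 0.13 and Ocln (occludin) at -0.79 ± 0.20.

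Genes of the muscle wall were lower throughout. All 16 smooth muscle genes were lower in MEKi 0.3, 15 without replicate 4, with a median log2 fold change of -1.29 (-1.12 without replicate 4), where 9.06% of all genes were lower. Mylk, the myosin light chain kinase (chromosome 16, 34745210 to 35002420), had 172, 187, 206 and 130.0 CPM in MEKi 0.3 and 389, 485, 429.9 and 427 CPM in Normal. No library of Mylk overlapped the other group, and the log2 fold change was -1.31 ± 0.23 (adjusted p = 0.000212). Tpm1 (tropomyosin) was at -0.98 ± 0.17 and Smtn (smoothelin) at -1.26 ± 0.23. The list summed to 4938, 4675, 5984 and 2894 CPM in MEKi 0.3, against 10056.6 to 12504 CPM in Normal. Of 15 enteric neuron and glia genes, 7 were lower and none higher, or 6 and none without replicate 4. Their sum was 104, 102, 109 and 199.8 CPM in MEKi 0.3 and 179.6 to 202 CPM in Normal, so that replicate 4 lay within the Normal range. Tubb3, a neuronal tubulin, had 2.95, 3.79, 4.55 and 3.40 CPM in MEKi 0.3 and 19.7, 9.08, 14.03 and 15.04 CPM in Normal (log2 fold change -1.98 ± 0.36, adjusted p = 0.000384), and the neuronal genes Prph and Uchl1 were at -1.57 ± 0.36 and -1.80 ± 0.43. Fat cell genes were lower for 7 of 9, but for 2 of 9 (Plin4 and Fabp4) without replicate 4. The median log2 fold change of the fat list was -2.21, or -1.94 without replicate 4, which was the lowest MEKi 0.3 library for 2 of the 9. Fat genes summed to 126, 45.0, 118 and 83.2 CPM in MEKi 0.3 and 334 to 402 CPM in Normal. Fabp4, a fatty acid carrier, had 18.7, 6.52, 20.7 and 9.22 CPM in MEKi 0.3 and 45.2, 56.5, 51.9 and 58.6 CPM in Normal (log2 fold change -1.93 ± 0.39). The lipid droplet coat gene Plin4 was at -1.84 ± 0.50, and Cidec, of the lipid droplet, was at -2.23 ± 0.64 but did not pass without replicate 4 (adjusted p = 0.0664). The labels do not record how much of the wall each sample held, and its part in the muscle, nerve and fat values was not tested.

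Of 24 collagen and matrix genes, 14 had intervals within 2-fold, 6 were lower and 1 higher, or 1 (Tnc) and 1 (Bgn) without replicate 4. The counts of this and the next 3 lists stand beside 9.06% lower and 10.8% higher over all genes. Bgn (biglycan) was at 0.74 ± 0.19 (adjusted p = 0.00741). Tnc (tenascin-C) was at -1.21 ± 0.33 (adjusted p = 0.0136, or 0.0505 without Normal replicate 1), and Col14a1 was at -1.21 ± 0.33 but did not pass without MEKi 0.3 replicate 4 (adjusted p = 0.0515). Of 19 matrix proteases and inhibitors, 5 were higher (Mmp3, Mmp7, Mmp10, Mmp12 and Mmp14) and 3 lower (Mmp15, Timp2 and Timp3). Without replicate 4, 3 (Mmp7, Mmp12 and Mmp14) were higher and 2 (Timp2 and Timp3) lower. Mmp12, the macrophage elastase, was at 2.25 ± 0.47, and the protease inhibitor Timp3 at -1.19 ± 0.19 (adjusted p = 7.38e-05). Among 16 endothelial genes, Madcam1, the ligand for gut-homing lymphocytes, was higher at 1.76 ± 0.27 (adjusted p = 4.85e-05), and Lyve1, of lymphatic vessels, was lower at -1.04 ± 0.24, as was Cldn5 of endothelial junctions, though not without replicate 4. Of 14 prostaglandin and leukotriene genes, 2 were higher (Tbxas1 and Alox15, the second not without replicate 4) and 3 lower (Ptgis, Hpgds and Ptger3), with Ptgis, the prostacyclin synthase, at -1.79 ± 0.29 (adjusted p = 0.000104), and the receptor gene Ptger3 at -1.46 ± 0.37.

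**Figure D4:**
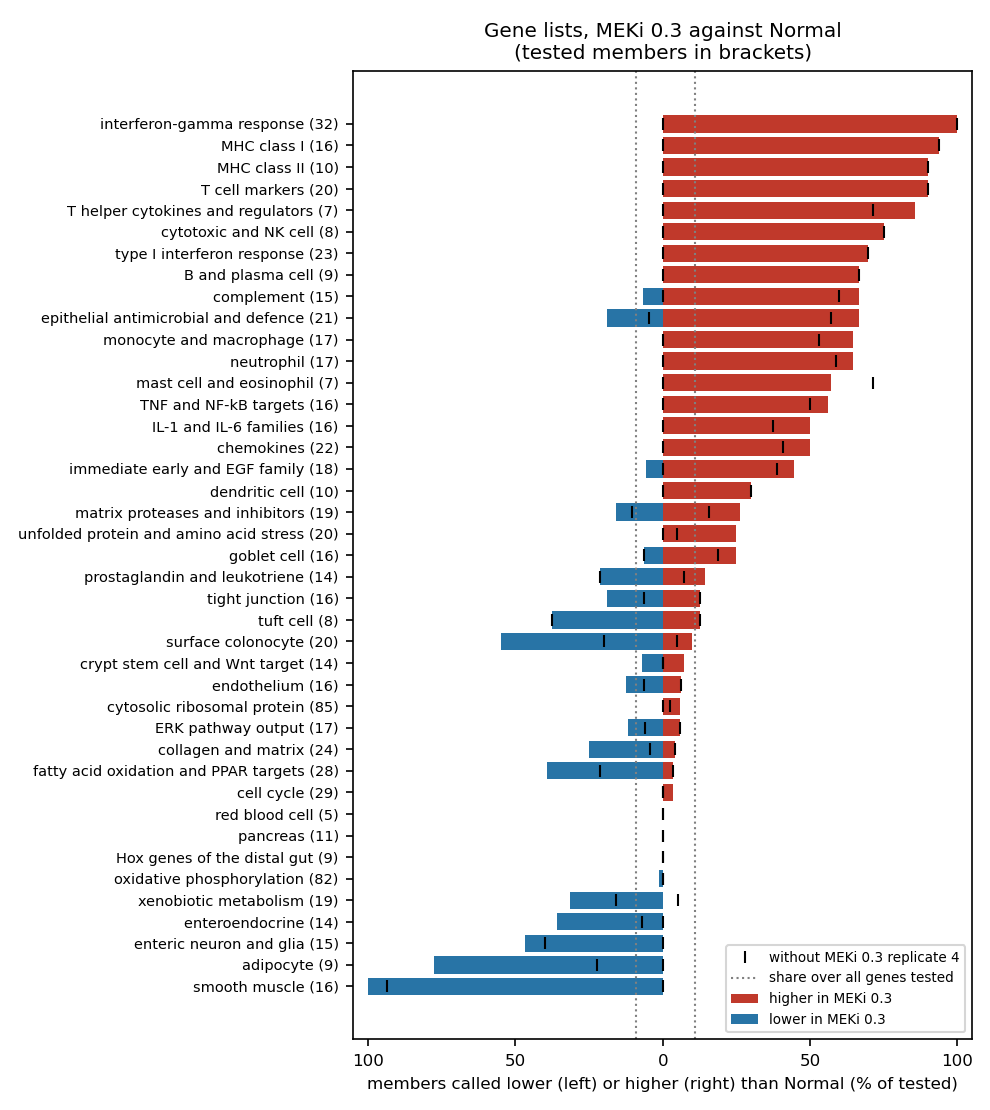
Share of the tested members of each gene list (number in brackets) called higher (right) or lower (left) in MEKi 0.3 than in Normal, with black ticks for the same list without MEKi 0.3 replicate 4 and dotted lines for the 10.8% and 9.06% of all genes. The interferon-gamma list reaches 100% higher and the smooth muscle list 100% lower, and the colonocyte and adipocyte lists shrink most without replicate 4.

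Of 17 genes that report ERK output, 1 was higher (Ccnd1) and 2 lower (Etv4 and Spred2), with a median log2 fold change of 0.12. Over all genes 10.8% were higher and 9.06% lower, so these counts were near the share of all genes. Without replicate 4 the calls were Dusp5 higher and Etv4 lower, and the median was 0.01. Dusp6, the ERK phosphatase (chromosome 10, 99263231 to 99267489), had 75.9, 88.8, 43.9 and 66.5 CPM in MEKi 0.3 and 51.7, 51.8, 58.9 and 40.98 CPM in Normal. The groups overlapped, through replicate 3, and the log2 fold change was 0.44 ± 0.22 with a 95% interval of -0.02 to 0.89 (adjusted p = 0.166). Spry4, a feedback inhibitor of receptor signalling, had 14.2, 15.2, 12.8 and 15.3 CPM in MEKi 0.3 and 8.22, 11.1, 10.2 and 4.36 CPM in Normal (log2 fold change 0.77 ± 0.29, adjusted p = 0.0569). Its libraries did not overlap, though it did not pass. The ETS factor gene Etv4 was lower, with 9.88, 11.4, 7.24 and 6.55 CPM in MEKi 0.3 and 21.8, 31.6, 24.01 and 9.15 CPM in Normal, where MEKi 0.3 replicates 1 and 2 overlapped Normal replicate 4 (log2 fold change -1.29 ± 0.32, adjusted p = 0.00584). Etv5, its relative, was at -0.29 ± 0.35 with an interval of -1.01 to 0.43 (adjusted p = 0.593). The higher gene was Ccnd1 (cyclin D1), at 0.78 ± 0.25, which did not pass in 4 of 8 fits that left out 1 library (adjusted p of 0.061 to 0.166). Spred2, a brake on RAF, was lower at -0.54 ± 0.15, and lost its call in 2 of those 8 fits. Immediate early and EGF family genes were higher for 8 of 18 and lower for 1 (Egf), or 7 and none without replicate 4. Fos had 196, 228, 159 and 165 CPM in MEKi 0.3 and 68.4, 73.00, 92.1 and 93.3 CPM in Normal (log2 fold change 1.19 ± 0.20, adjusted p = 0.000133), Egr2 a count ratio of 57.8 (95% counting interval 10.01 to 2319), and Hbegf, an EGF receptor ligand, 1.63 ± 0.33. Every MEKi 0.3 library of Fos lay above every Normal library. Phosphorylated ERK was not measured here.

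Of 29 cell cycle genes, 1 was higher (Cdc45) and none lower, and none was called without replicate 4. The median log2 fold change was 0.56, or 0.28 without replicate 4, which was the highest MEKi 0.3 library in all 29. The list summed to 1488, 1201, 1641 and 2631 CPM in MEKi 0.3, to 2337 to 2583 CPM in Vehicle and to 698 to 1509 CPM in Normal. Top2a, a topoisomerase of dividing cells, had 157, 123, 155 and 308 CPM in MEKi 0.3 and 119, 133, 111 and 48.4 CPM in Normal (log2 fold change 0.86 ± 0.33, adjusted p = 0.0698). Replicate 2 lay within the Normal range, replicates 1 and 3 just above it and replicate 4 well above it. Plk1, a mitotic kinase gene, was at 0.94 ± 0.35 (adjusted p = 0.0646). Cdc45, a replication helicase factor, was at 1.15 ± 0.34 (adjusted p = 0.0213), and it lost the call in 3 of 8 fits that left out 1 library (adjusted p of 0.0653 to 0.106). Crypt stem cell and Wnt target genes gave 1 higher (Cd44) and 1 lower (Nkd1) of 14, and none without replicate 4. Neither list exceeded the share of all genes, of which 10.8% were higher and 9.06% lower.

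Fatty acid oxidation genes were lower for 11 of 28 and higher for 1, or 6 and 1 without replicate 4, with a median log2 fold change of -0.41. Cd36, a fatty acid transporter, had 10.4, 5.68, 7.66 and 2.43 CPM in MEKi 0.3 and 18.8, 26.9, 23.8 and 27.03 CPM in Normal (log2 fold change -1.86 ± 0.38, adjusted p = 0.00115), and Plin2, of lipid droplets, was at -0.66 ± 0.15. The acyl-CoA synthetase gene Slc27a2 was higher at 2.12 ± 0.43 (adjusted p = 0.00117). Amino acid and protein stress genes were higher for 5 of 20 (Sdf2l1, Creld2, Phgdh, Shmt2 and Ddit4), and for Phgdh alone without replicate 4. Phgdh, the entry enzyme of serine synthesis, had 72.1, 53.7, 83.4 and 95.6 CPM in MEKi 0.3 and 38.3, 15.8, 28.3 and 11.8 CPM in Normal (log2 fold change 1.68 ± 0.37, adjusted p = 0.0028). Of 82 respiratory chain genes, 73 had intervals within 2-fold of Normal and 1 was lower. This was Ndufa1, a complex I subunit gene with 40.2, 36.4, 40.97 and 24.3 CPM in MEKi 0.3 and 48.2, 131, 47.3 and 58.6 CPM in Normal, which did not pass without Normal replicate 2 (adjusted p = 0.106) or MEKi 0.3 replicate 4 (adjusted p = 0.0655). Of 85 ribosomal protein genes, 79 had intervals within 2-fold and 5 were higher (Rpl41, Rplp0, Rps12, Rps12l1 and Rpsa), or 2 (Rps12 and Rps12l1) without replicate 4, with Rps12 at 0.72 ± 0.19. Rps12 and Rps12l1 are near copies and may share reads. None of 9 tested Hox genes of the distal gut was called, and Hoxb13, the most posterior of its cluster, had 436, 454, 354 and 142 CPM in MEKi 0.3 and 469, 410.4, 456 and 560.4 CPM in Normal. Replicates 3 and 4 lay below the Normal range. Pancreas genes summed to 149.9, 146, 135 and 13.6 CPM in MEKi 0.3 and 343 to 478 CPM in Normal, and none of 11 was called. Most of this was Cela1, an elastase gene with 145, 143, 128 and 12.6 CPM in MEKi 0.3 and 414, 326, 347 and 467 CPM in Normal. In Vehicle the pancreas genes summed to 29.1, 30.8, 40.1 and 7087 CPM, so Vehicle replicate 4 held pancreatic transcripts far above the other libraries of its group. Red blood cell genes summed to 28.97 to 55.5 CPM in MEKi 0.3 and 49.97 to 76.1 CPM in Normal, and squamous genes to 3.29 to 6.10 CPM in MEKi 0.3 and 2.18 to 11.1 CPM in Normal. None was called in either list.

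**Figure D5:**
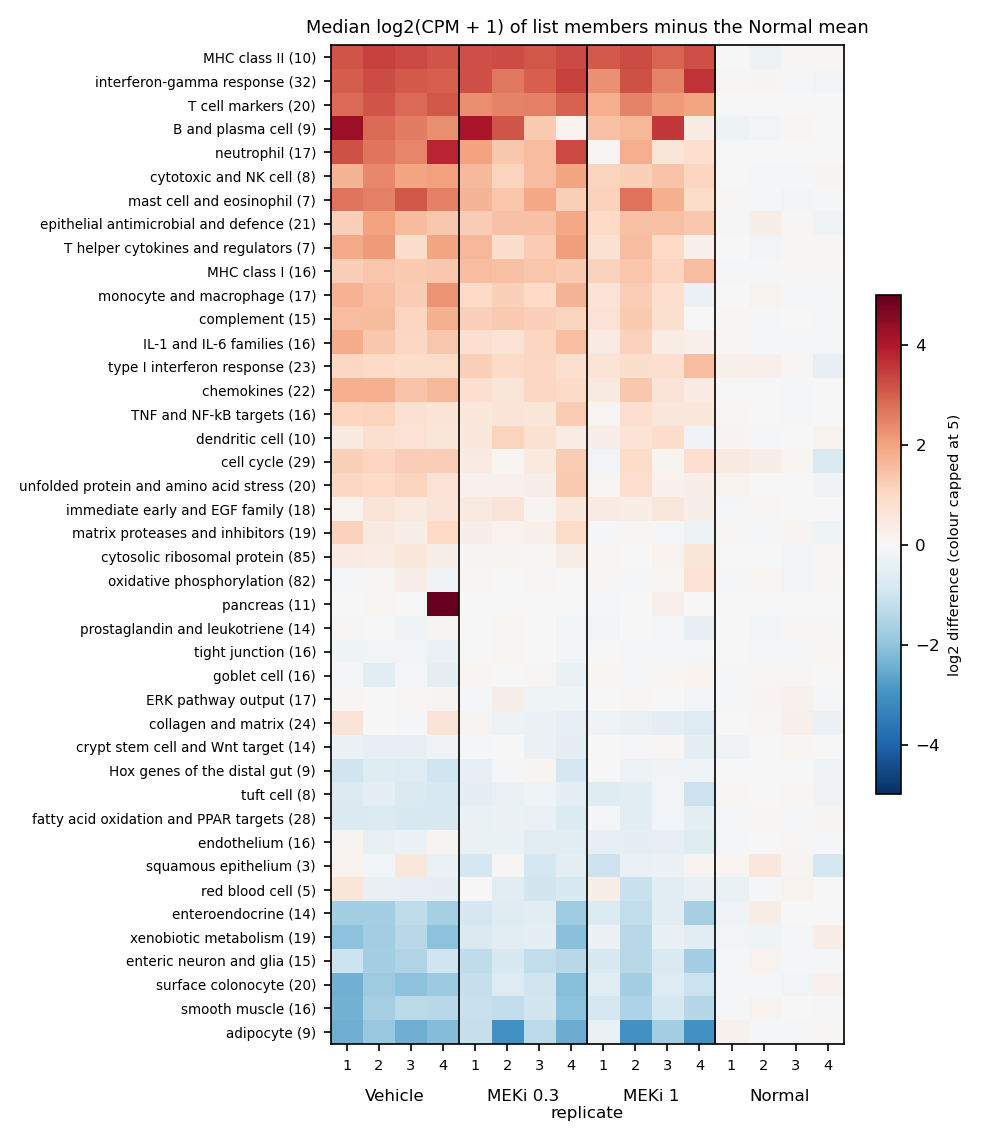
Median over each list's tested members of log2(CPM + 1) minus the Normal mean, for every library of Vehicle, MEKi 0.3, MEKi 1 and Normal; red is above and blue below Normal. The interferon-gamma and class II lists are red in all MEKi 0.3 libraries, and replicate 4 departs from replicates 1 to 3 in the neutrophil, cell cycle, colonocyte and B and plasma cell lists.

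The test of MEKi 0.3 against Vehicle sets colitis with the drug in microparticles against colitis with methylcellulose. Effects of the drug and of the formulation cannot be told apart in it. With all libraries, 1 of 14773 genes passed in edgeR (0.00677%) and 2639 had an unadjusted p below 0.05, while DESeq2 called 93 genes and limma-voom with sample weights, which gives deviating libraries less influence, 3303. Same-numbered libraries of these 2 groups deviated together, and a fit of the 2 groups with the replicate number as a block called 405 genes, 227 higher and 178 lower, whereas the fit of all 24 libraries with the same block called 1. The gene that passed was Banp, a nuclear protein that binds methylation-free CpG motifs, with 21.5, 31.4, 24.6 and 44.4 CPM in MEKi 0.3 and 10.3, 11.01, 9.97 and 5.08 CPM in Vehicle (log2 fold change 1.74 ± 0.25, adjusted p = 0.00577). Its libraries did not overlap between these groups, and Normal held 31.8, 19.5, 19.9 and 22.01 CPM. It did not pass without Vehicle replicate 4 (adjusted p = 0.0542) or with only the 2 groups in the fit (adjusted p = 0.0899). Vehicle replicate 4 was also the library with 7087 CPM of pancreas genes, and the effect of these on the test was not tested. Without MEKi 0.3 replicate 4 the same edgeR test against Vehicle called 1130 of 15025 genes (7.52%), 701 higher (4.67%) and 429 lower (2.86%). Replicate 4 was singled out after it was seen to lie among the Vehicle libraries, so leaving it out favours calls against Vehicle by construction. The list calls of this fit were added after the data were seen, and they cannot show how far the dose moved the colon. In that fit none of the 32 interferon-gamma genes was called, with a median log2 difference from Vehicle of -0.05, nor any of 10 class II genes (median -0.05). Of 20 T cell markers, 2 were lower (Trbc1 and Thy1, list median -0.65). Of 17 neutrophil genes, 3 were lower (S100a9, Fpr1 and Fpr2, median -2.03). Of 17 monocyte and macrophage genes, 4 were lower (Cd68, Aif1, Ly6c2 and Msr1, median -0.62). In the other direction, 8 of 28 fatty acid oxidation genes, 5 of 19 detoxification genes (Ugt2b34, Sult1a1, Sult1b1, Abcg2 and Adh1) and 5 of 16 goblet cell genes (Tff3, Fcgbp, Atoh1, Zg16 and Klk1) were higher than in Vehicle. Members named here by their call alone were chosen after their values were seen. S100a9 was lower at -3.61 ± 0.98 (adjusted p = 0.0393) and Lcn2 at -2.20 ± 0.62 (adjusted p = 0.0436).

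Among the genes with the smallest p in that fit, picked after their values were seen, were Atoh1, the master factor of secretory lineages, and Gas6, a ligand that aids clearance of dying cells. Atoh1 had 71.9, 69.7, 77.2 and 35.7 CPM in MEKi 0.3, 25.4 to 42.6 CPM in Vehicle and 64.03, 71.3, 80.5 and 83.7 CPM in Normal, a log2 difference from Vehicle of 1.09 ± 0.19 without replicate 4 (adjusted p = 0.0261). Gas6 had 378, 373, 404 and 112 CPM in MEKi 0.3, 113 to 151 CPM in Vehicle and 509, 448, 538 and 622 CPM in Normal (1.48 ± 0.28). Cped1 was also higher, at 1.48 ± 0.25. Lower were Eif4ebp1, a translation repressor, at -1.44 ± 0.30, and Fcer1g, the Fc receptor signalling chain of myeloid cells, at -1.24 ± 0.26. Replicate 4 lay within the Vehicle range for Atoh1, Eif4ebp1 and Fcer1g and just outside it for Gas6 and Cped1, while replicates 1 to 3 of all 5 genes lay outside that range on the side of Normal. The 5 genes were picked by the fit without replicate 4, so the distance of replicates 1 to 3 from Vehicle follows from the choice.

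Between the doses, no gene passed in edgeR (0%), with 641 at an unadjusted p below 0.05. DESeq2 called 2 genes and limma-voom 0, and edgeR without MEKi 0.3 replicate 3 gave 1. The intervals of 11212 genes (75.9%) lay within 2-fold between the doses. The smallest p-values belonged to Nt5c1a, a nucleotidase gene, at 3.40 ± 0.74, Gpr18, a receptor gene of lymphocytes, at 1.55 ± 0.34, and Gabrp, a GABA receptor subunit gene, at 1.32 ± 0.32, with adjusted p of 0.926, 0.926 and 1. Gpr18 had 4.85, 6.31, 3.93 and 4.85 CPM in MEKi 0.3 and 1.38, 2.09, 1.53 and 1.73 CPM in MEKi 1, and Gabrp 27.04, 19.1, 25.9 and 18.7 CPM in MEKi 0.3 and 8.25, 6.91, 6.90 and 15.3 CPM in MEKi 1. Neither gene's libraries overlapped between the doses. Both were picked by their small p, so this separation follows from the choice. The share of all genes without overlap between the doses was not computed. A p that misses the threshold does not show that the doses act alike.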

How the data were processed

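Total RNA of distal colon was enriched for poly(A) RNA, fragmented with RNase III and made into libraries with the Ion Total RNA-Seq Kit v2, per the labels' protocols. RNase III and the selection of poly(A) RNA can favour some transcripts. The deposited values are raw counts per gene symbol, 1 file a sample, and mm10 is the genome build in the submitters' processing notes. Aligner, counter and strand setting were not stated in any label or file header used, so overlapping and antisense genes may share counts. No read depth beyond the total count of each library is known.

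Groups were taken from the sample titles. All 24 libraries (6 groups of 4) entered 1 edgeR 4.0.16 quasi-likelihood fit in R 4.3.3, after filterByExpr and TMM scaling, with robust dispersions. It tested 14773 of the 27509 symbols with a count, with Benjamini-Hochberg adjustment within each comparison at 0.05. Fold changes carry a prior count of 0.125, and intervals are 95%. Counting intervals are exact and, like the floor of 3 counts, cover counting error only. Libraries were compared by a chi-square test of their counts, and no pair agreed within sampling noise. The scripts were tested on simulated counts. Alternatives used DESeq2 1.42.0, limma 3.58.1 and other filters, scalings and libraries. Gene positions are of GENCODE M21 on GRCm38, matched by symbol for 40423 of 43280 symbols.

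The labels do not say what a shared replicate number means. Between MEKi 0.3 and Vehicle, deviations from the group means of same-numbered libraries correlated at 0.126, 0.125, 0.167 and 0.184 (across genes), above 0.1 in every pair, and the fit with the replicate block is given beside that comparison. MEKi 0.3 replicate 2 nevertheless correlated best with Vehicle replicate 1. Named genes are the 12 highest and 12 lowest fold changes of called genes without overlap and with a mean of at least 5 CPM in a group, the 3 smallest p of each list, the called genes (or else the 3 smallest p) of each further comparison and 16 fixed genes. Of the 158 that resulted, 128 are given with values, together with 8 chosen after their values were seen. Genes with predicted, Riken, pseudogene, unnamed Ensembl or immunoglobulin segment names were left out of the 12 highest and 12 lowest. The comparison and the gene lists were chosen with earlier results of these data known.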

Additional observations from a re-analysis of the deposited data

Results flagged for a closer look

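The genes given with values were searched for deviating libraries, in 220 sets of 4 libraries (1 gene in 1 group, at least 5 CPM in the highest). In 19 sets the gap of a library to the nearest of the others exceeded Dixon's 95% critical value for 4 values. The rate of about 1 in 20 by chance holds for independent sets of normally distributed values. These genes were chosen and vary together, so the 19 cannot be set against that rate. MEKi 0.3 replicate 4 was the deviating library in 14 of the 19. Among these, Gas6 and Eif4ebp1 were picked by the fit without replicate 4, so their flags follow from the choice.

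Inflammatory genes in which replicate 4 lay above the rest of its group were S100a9 (375 CPM, against 10.3 to 62.1 CPM in the other 3), Aif1 (34.2 CPM, against 21.3 to 22.6), Cxcl16 (149 CPM, against 81.8 to 89.6), Ccl5 (63.8 CPM, against 12.1 to 14.1) and Cxcl5 (364 CPM, against 10.7 to 28.3). C3, the central complement component, had 1062 CPM in replicate 4 against 584 to 648 CPM. Epithelial genes behaved likewise: Nos2 had 1750 CPM in replicate 4 against 472 to 579 CPM, Reg3b 1550 CPM against 25.9 to 82.3 CPM, Reg3g 1019 CPM against 19.7 to 31.99 CPM, and Muc4 371 CPM against 119 to 128 CPM. Ccnd1 had 160.1 CPM against 81.3 to 88.8 CPM and Eif4ebp1 99.7 CPM against 29.5 to 40.4 CPM. Replicate 4 was the low library for Gas6, at 112 CPM against 373 to 404 CPM, and for Cela1, at 12.6 CPM against 128 to 145 CPM. Vehicle means were close to the replicate 4 value for S100a9 (389 CPM), C3 (1042 CPM) and Eif4ebp1 (98.1 CPM), below it for Reg3b (697 CPM) and Nos2 (1004 CPM), and far above it for Cela1 (172 CPM, most of it in Vehicle replicate 4). What set replicate 4 apart was not tested.

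The other 5 were single values. Trac had 6.62 CPM in MEKi 0.3 replicate 3 against 12.5 to 13.3 CPM in the other libraries of that group. In Normal replicate 3, Igha had 6.83 CPM against 0 to 0.872 CPM and Igkc 7.20 CPM against 0 to 0.654 CPM. In Normal replicate 2, Ndufa1 had 131 CPM against 47.3 to 58.6 CPM, and Plet1 had 12.8 CPM against 3.92 to 5.19 CPM.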

How the results depend on the processing

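Leaving out 1 library at a time gave 1835 to 2990 genes against Normal (1162 to 1643 higher, 673 to 1347 lower; lowest without MEKi 0.3 replicate 4) and 8509 to 9406 genes within 2-fold. Against Vehicle it gave 0 to 1130 genes (0 to 701 higher, 0 to 429 lower), where 1130 came without MEKi 0.3 replicate 4 and 0 without Vehicle replicate 4 (1882 at an unadjusted p below 0.05). Against MEKi 1 it gave 0 to 1 gene, 0 to 1 higher. By the combined table's names, edgeR called 0 genes against Normal (0 higher, 0 lower) and 0 against Vehicle (0 higher; 1323 at an unadjusted p below 0.05). Of 137 named values 3 then changed sign: Dusp6 to -0.021, Banp to -0.24 and Banp against Vehicle to -0.33. Against Vehicle, DESeq2 called 93 genes (73 higher, 20 lower), limma-voom with sample weights 3303 (1664 higher, 1639 lower), edgeR without the filter 3 (3 higher) and edgeR on only the 2 groups 0 (0 higher; 2795 at an unadjusted p below 0.05). DESeq2 called 2 genes against MEKi 1 (1 higher, 1 lower). With the replicate block and only the 2 groups, 1841 genes were called against Normal (943 higher) and 405 against Vehicle (227 higher, 178 lower). Same-numbered libraries of MEKi 0.3 and Normal correlated at -0.196 to -0.00847 and no library correlated best with its own number. Other scalings, filters and the block in all 24 libraries gave 2462 to 2962 genes against Normal, and none of the genes they shared with the calls of the report was called in the opposite direction. The cause of these differences was not tested. A library of 3052940 counts holds few counts of genes near 1 CPM, so absence from Normal means under the floor.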
